A study of Mus musculus with 10 samples.

Results

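The genes described here encode the membrane transporters that carry amino acids and small neurotransmitters into and out of cells. They were chosen by symbol, as members of the SLC1, SLC3, SLC6, SLC7, SLC36, SLC38 and SLC43 families. The rule uses no measured value, but it was set with earlier results of these data known. A member needed a probe set, the group of short probes that reports 1 transcript, that names that gene only. This gave 63 genes with 125 probe sets, of 18193 genes and 35041 probe sets that name 1 gene, and 60 of the 63 are transporter genes. The other 3, Slc36a1os, Slc6a19os and Slc7a6os, are named for the opposite strand of a transporter gene and carry no transporter role.

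The samples were medulloblastomas, malignant tumours of the cerebellum, and the cerebellar tissue beside them, which the labels call wild type. Both came from mice carrying CAGGS-CreER and R26-SmoM2. SmoM2 is a constantly active Smoothened, the protein that switches on Hedgehog signalling, and CreER is a recombinase that works only after tamoxifen. Tamoxifen was given to all mice on postnatal day 10 (1 mg for each 40 g), so the cerebellum samples share the alleles and the treatment with the tumours. The CAGGS promoter is active in most cell types, so recombination need not be limited to the cells that form the tumour. Age at collection is not given in the sources used here. Each of the Affymetrix chips 430A and 430B was used for 3 tumours and 2 cerebellum samples. Samples of a tissue are labelled as biological replicates, and the labels do not say which tumour and cerebellum came from the same mouse. The p-values below measure the spread between these few samples, which may be partly technical.

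Amino acid transporters fall into a few working groups. Glutamate and GABA are cleared from synapses by sodium-driven uptake, glutamate mainly by the SLC1 carriers of glia and Purkinje cells and GABA by SLC6 carriers. Glycine, creatine, taurine, proline and the monoamines have SLC6 carriers of their own. Growing cells take up leucine and other large amino acids through heteromeric exchangers, in which an SLC7 light chain is joined to an SLC3 heavy chain. They import arginine and lysine through the cationic SLC7 carriers, and small neutral amino acids through SLC1, SLC38 and SLC36 carriers.

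The deposited intensity is on a linear scale, and array medians lay between 33.3 and 35.9 on 430A and between 22.5 and 24.0 on 430B. The tissue labels were checked on marker genes. Atoh1, the transcription factor of granule neuron precursors, had 511, 454 and 553 units in the tumours and 27.7 and 16.2 in cerebellum 1 and 2. Gabra6, a receptor subunit of mature granule neurons, had 52.2, 37.0 and 15.2 units in the tumours and 3020 and 3004 in cerebellum 1 and 2. Insm1, a second precursor gene, had 42.6 units in cerebellum 1 and 7.50 in cerebellum 2, so the cerebellum samples were not alike. Of 8 precursor genes 5 were called higher and 2 lower in the tumours, and all 6 tested oligodendrocyte genes were called lower. Over the 100 probe sets that both chips hold, the deviations of tumour 1 on 430A from the tumour mean matched those of tumour 2 on 430B best (r = 0.83). Tumour 2 on 430A matched tumour 3 on 430B (r = 0.862), and tumour 3 matched tumour 1 (r = 0.729), as a description across probe sets. A tumour number on one chip was therefore not read as the same tumour on the other, and every comparison stayed within a chip.

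The comparison asks which transporter genes have another level in medulloblastoma than in the adjacent tissue. More of them were lower than higher in the tumours. Those with a probe set called higher carry cationic, large neutral or small neutral amino acids, apart from Slc6a2, a noradrenaline carrier. This does not mark them out, since carriers of large neutral (Slc43a2) and small neutral amino acids (Slc7a10) were also called lower. The test was limma on log2(intensity + 16), run for each chip on all its probe sets that passed the filter, and genes are called at an adjusted p below 0.05. All fold changes here are on that scale, which understates the change of dim probe sets. A filter dropped the dimmest 25% of probe sets by mean, and 47 of the 63 genes kept at least 1 probe set. On 430A, 5 of 44 member probe sets (11.4%) were called higher and 13 (29.5%) lower, while 13.1% and 19.0% of all probe sets were. On 430B these were 3 of 45 (6.67%) and 7 (15.6%), against 7.85% and 9.77% of all probe sets. With 1 chosen probe set per gene, 2 genes (4.26%) were higher and 15 (31.9%) lower, where 10.7% and 16% of all 14702 genes were. The counts of roles and gene lists given here stand against the same shares of all genes. The median log2 fold change was -0.18 over the 47 members and -0.05 over all genes. Over probe sets of 430A the median was -0.17 for members and -0.05 for all. On 430B it was -0.016 for members and -0.022 for all, so that chip did not show the lower median. Counted by any of their tested probe sets, 5 member genes (10.6%) were called higher and 16 (34.0%) lower, against 13.7% and 19.4% of all genes. In pieces of tissue, fewer cells of a type and less RNA per cell cannot be told apart.

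**Figure D1:**
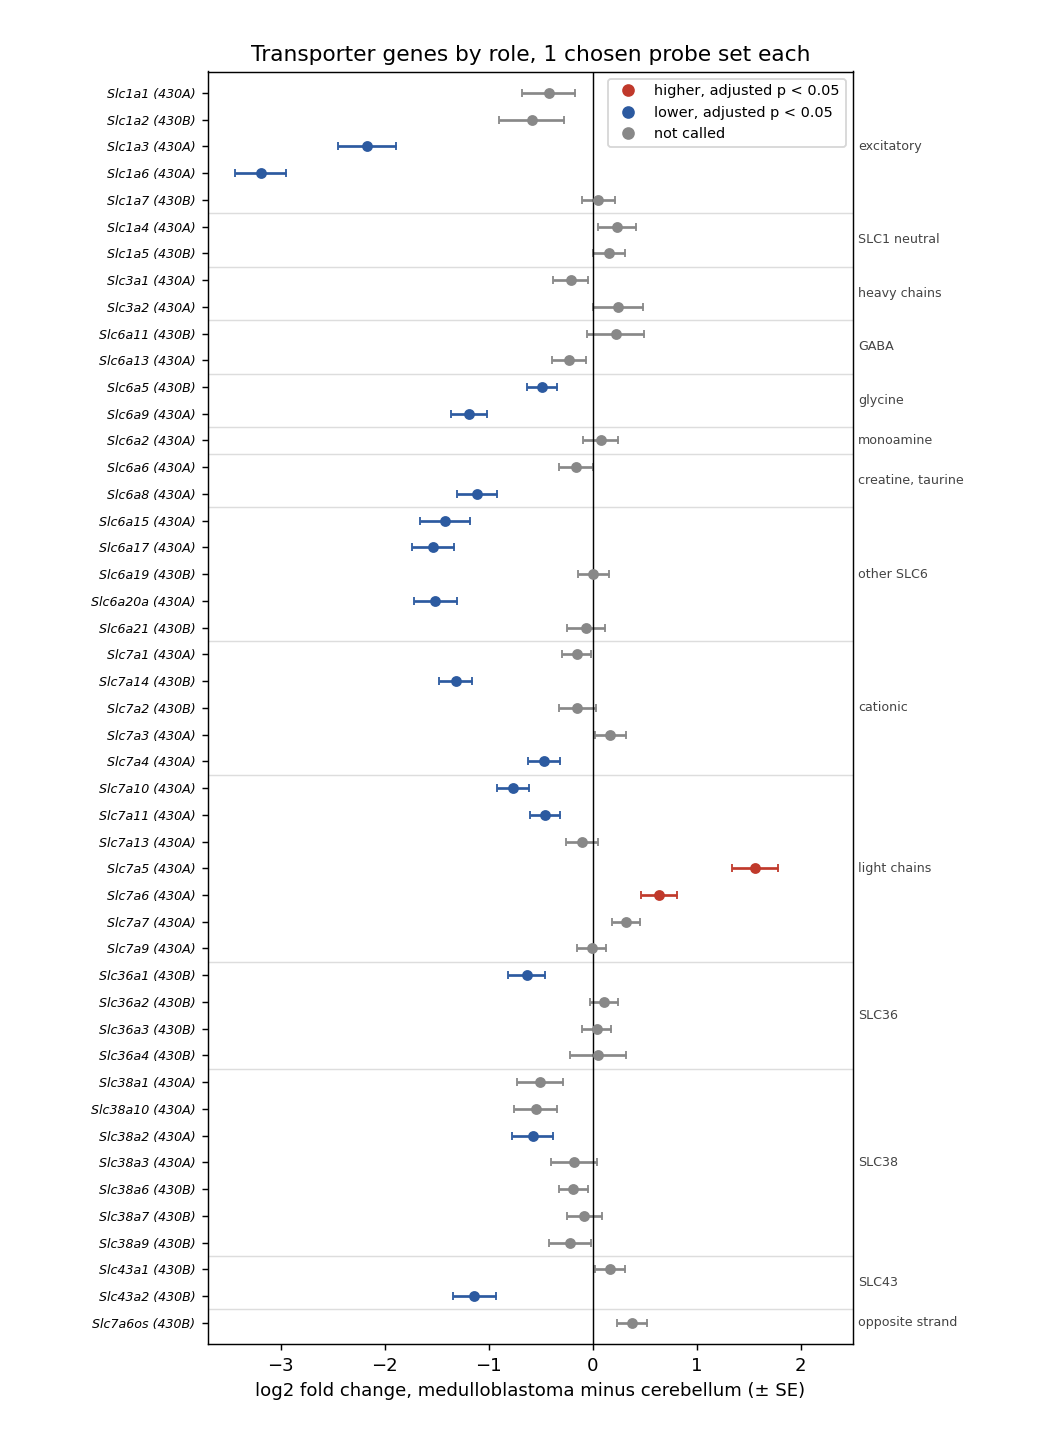
Log2 fold change of medulloblastoma minus cerebellum for the chosen probe set of each of the 47 tested members, grouped by role, with bars of 1 SE. Red points were called higher and blue points lower at an adjusted p below 0.05, and grey points were not called. Blue points outnumber red ones 15 to 2, and Slc1a6 lies lowest at -3.20.

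Of the 5 excitatory amino acid transporters, which take up glutamate, 2 were called lower and none higher. Slc1a6 (EAAT4), the carrier of Purkinje cells, had 12.9, 11.8 and 6.66 units in the tumours, against 160 and 313 in cerebellum 1 and 2. The groups lie far apart, and the tumour values are near the bottom of the intensity range. The log2 fold change was -3.20 ± 0.24 (SE, adjusted p = 3.37e-06). It was -4.35 with a pseudocount of 1 and -1.97 with one of 64, since so little of the tumour signal stands above the added constant. The 6 measured Purkinje markers were all called lower too, and their summed intensity on 430A was 195 to 369 in tumours and 10460 to 13610 in cerebellum. None of them stood at the value 1 to which low readings appear to be set, and their part in the fall of Slc1a6 was not tested.

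Slc1a3 (GLAST), the glutamate carrier of Bergmann glia and astrocytes, fell on every bright probe set. The chosen one, on 430A, had 193, 131 and 230 units in the tumours and 662 and 1131 in cerebellum 1 and 2, a log2 fold change of -2.17 ± 0.28 (adjusted p = 1.32e-04). A second 430A probe set had 145, 64.5 and 119 against 394 and 621 (-2.08 ± 0.30), and another 156, 101 and 164 against 868 and 893 (-2.54 ± 0.23). Tumour 2 was the lowest of the tumours in all 3, and no tumour came near a cerebellum sample. On 430B the brightest Slc1a3 probe set gave 415, 423 and 273 against 784 and 1075, which is -1.30 ± 0.31 (adjusted p = 0.0172). That call ended without cerebellum 1 (-1.52, adjusted p = 0.0702), without cerebellum 2 (-1.08, 0.209) and with no filter on low values (0.0545). The other 430B probe sets of Slc1a3 were dim, at 10.5 to 69.3 units over all arrays, and neither was called (0.06 and 0.16). Of 11 markers of Bergmann glia and astrocytes 8 were called lower and 1 higher, with a summed intensity of 933 to 1876 in tumours and 7104 to 8095 in cerebellum. Their part in the fall of Slc1a3 was not tested.

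Slc1a2 (GLT-1), the main glutamate carrier of astrocytes, was not called. Its brightest probe set had 701, 783 and 693 units in the tumours and 929 and 1298 in cerebellum 1 and 2, a log2 fold change of -0.59 ± 0.31 (adjusted p = 0.256). The groups did not overlap, but the cerebellum samples lay far from each other. With the 430B arrays scaled on the probe sets shared with 430A, which lowers the median log2 fold change of that chip by 0.15, the same probe set had -0.83 (adjusted p = 0.00588). Its other tested probe sets, also not called, had -0.47 ± 0.19 (adjusted p = 0.131) and 0.32 ± 0.16 (adjusted p = 0.238). Slc1a1 (EAAC1), the carrier of neurons, had -0.42 ± 0.25 (adjusted p = 0.246), with tumour 2 at 24.4 units and all other arrays between 56.8 and 71.3. Slc1a7 (EAAT5), known from the retina, had 0.05 ± 0.16.

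The glycine carriers were both called lower. Slc6a9 (GlyT1), the glial carrier, had 34.2, 31.5 and 34.3 units in the tumours and 81.6 and 113 in cerebellum 1 and 2, a log2 fold change of -1.19 ± 0.17 (adjusted p = 3.02e-04). The tumours lay within 3 units of each other, well under both cerebellum samples. Its second probe set differed less, with -0.22 ± 0.16 (adjusted p = 0.335), and the mean of both gave -0.71 (adjusted p = 0.00422). Slc6a5 (GlyT2), the carrier of glycinergic neurons, was dim, at 11.1, 14.4 and 16.6 units against 26.7 and 25.2, and had -0.49 ± 0.14 (adjusted p = 0.0416). The call for Slc6a5 ended without cerebellum 1 (-0.46, adjusted p = 0.224), cerebellum 2 (-0.51, 0.182), tumour 1 (-0.41, 0.111) or tumour 2 (-0.50, 0.103). It also ended with a pseudocount of 1 (-0.86), with each other scaling, with no filter and with no trend, at adjusted p between 0.0509 and 0.0802. All 4 tested markers of GABAergic interneurons were called lower. Some of these neurons also release glycine in the cerebellum, but the markers were not limited to those. The part of these neurons was not tested.

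Among the GABA carriers, Slc6a11 (GAT3), found in astrocytes, had 98.7, 68.7 and 39.2 units in the tumours and 63.0 and 45.7 in cerebellum 1 and 2, so the groups overlap. Its difference was 0.22 ± 0.28 (adjusted p = 0.667) and -0.03 without tumour 1. Neither it nor Slc6a13 (GAT2), known from meninges and liver (-0.23 ± 0.17, adjusted p = 0.344), was called. Of the creatine, taurine and proline carriers, Slc6a8, which imports creatine, was called lower. It had 54.0, 66.6 and 61.2 units in the tumours and 130 and 172 in cerebellum 1 and 2 (-1.11 ± 0.19, adjusted p = 9.59e-04). A second Slc6a8 probe set did not show this, with 0.10 ± 0.17, and the mean of both gave -0.51 (adjusted p = 0.0318). Slc6a6, the taurine carrier, had 267, 166 and 186 units against 340 and 310 on its bright 430B probe set. That difference was -0.64 ± 0.26 (adjusted p = 0.133), and the dimmer chosen probe set gave -0.16 ± 0.16.

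The remaining SLC6 carriers held 3 of the largest falls. Slc6a17 (NTT4), a neutral amino acid carrier of synaptic vesicles, had 32.3, 35.7 and 33.3 units in the tumours, against 99.9 and 164 in cerebellum 1 and 2, which is -1.54 ± 0.20 (adjusted p = 1.43e-04). A 430B probe set of Slc6a17 gave -1.09 ± 0.19 (adjusted p = 0.00261), with 11.4, 17.6 and 21.7 units against 42.9 and 66.4. Another on 430B had -0.35 ± 0.15 (adjusted p = 0.135) and was not called. Slc6a15 (B0AT2), a neuronal carrier of branched-chain amino acids and proline, had 54.9, 26.4 and 53.1 units against 163 and 125 (-1.42 ± 0.24, adjusted p = 8.91e-04). Slc6a20a (SIT1), which carries proline and other imino acids, had 10.5, 14.9 and 27.96 units against 74.2 and 82.5 (-1.51 ± 0.21, adjusted p = 1.83e-04). With pseudocounts of 1 and 64 the log2 fold change of Slc6a20a was -2.19 and -0.81. In each of these 3 genes every tumour lay under every cerebellum sample. This does not mark them out, since the tissues did not overlap in any called member probe set. Slc6a13 and Slc6a20a are also known from the meninges, and of 5 tested meningeal markers 1 was called higher and 1 lower. The summed intensity of these markers was 283 to 479 in tumours and 294 to 305 in cerebellum, and their part was not tested. Mature granule neuron markers, all 7 of which were called lower, had a summed intensity of 317 to 371 in tumours and 6405 to 6951 in cerebellum, and their part in these falls was not tested. Slc6a19, a carrier of gut and kidney, had 0.01 ± 0.15 and Slc6a21, whose substrate is not settled, had -0.07 ± 0.18.

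Of the 5 genes with a probe set called higher, 4 encode carriers or light chains for amino acids. Slc7a5 (LAT1), the light chain that exchanges glutamine for leucine and other large neutral amino acids, had 61.8, 115 and 68.6 units in the tumours, against 13.7 and 19.2 in cerebellum 1 and 2. The difference was 1.56 ± 0.22 (adjusted p = 2.62e-04), and 2.21 and 0.84 with pseudocounts of 1 and 64. Slc7a1 (CAT1), the main importer of arginine and lysine, had 249, 206 and 248 units against 68.6 and 66.7 on one 430B probe set and 248, 183 and 230 against 54.8 and 46.4 on another. Those gave 1.58 ± 0.20 (adjusted p = 4.25e-04) and 1.82 ± 0.21 (adjusted p = 2.01e-04). The 430A probe set of Slc7a1, chosen by the rule that puts 430A first, read only 16.3 to 23.3 units over all arrays and had -0.16 ± 0.14 (adjusted p = 0.448). The rise therefore rests on the 2 brighter probe sets of 430B, both of which cite the same sequence accession in the platform annotation and may not be independent.

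Slc7a6 (y+LAT2), a light chain that exchanges arginine for neutral amino acids, had 98.3, 82.4 and 85.2 units in the tumours and 55.5 and 47.1 in cerebellum 1 and 2. It rose by 0.64 ± 0.17 (adjusted p = 0.0154) on that probe set and by 0.67 ± 0.16 (adjusted p = 0.00868) on a second, with 53.8, 38.8 and 51.0 units against 26.8 and 21.1. The call of the first ended without cerebellum 1 (0.73, adjusted p = 0.0632), cerebellum 2 (0.55, 0.18) or tumour 1 (0.57, 0.056), and that of the second without cerebellum 2 (0.57, 0.12). Slc1a4 (ASCT1), an exchanger of serine, alanine and cysteine, was called higher on 2 of 3 probe sets. The first had 36.9, 38.7 and 31.5 units against 14.3 and 16.9 (0.71 ± 0.14, adjusted p = 0.00292), and the second 35.4, 35.2 and 30.7 against 16.1 and 19.6 (0.56 ± 0.14, adjusted p = 0.0116). Without cerebellum 1 the second had 0.48 (adjusted p = 0.123). The third Slc1a4 probe set, the brightest and so the chosen one, had overlapping groups and 0.24 ± 0.18 (adjusted p = 0.378). The mean of all 3 gave 0.50 (adjusted p = 0.0133).

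Neither heavy chain was called. Slc3a2 (CD98), the heavy chain that brings Slc7a5 and Slc7a6 to the cell surface, had 175, 263 and 169 units in the tumours and 140 and 195 in cerebellum 1 and 2. The groups overlap, and the difference was 0.24 ± 0.24 (adjusted p = 0.508). Slc3a1, the heavy chain of the kidney cystine carrier, had -0.21 ± 0.17. Slc1a5 (ASCT2), a glutamine exchanger, had 0.15 ± 0.15 on its 1 tested probe set. Slc7a1, Slc7a5 and Slc3a2 are also known from brain endothelium. Of 11 tested endothelial markers none was called higher and 3 were called lower. The 10 of them on 430A summed to 396 to 438 units in tumours and 559 to 571 in cerebellum. The part of endothelium in the values of Slc7a1, Slc7a5 and Slc3a2 was not tested.

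Other SLC7 members were called lower. Slc7a14, a relative of the cationic carriers on intracellular membranes, had 46.1, 38.8 and 42.1 units in the tumours and 133 and 126 in cerebellum 1 and 2, a log2 fold change of -1.32 ± 0.16 (adjusted p = 3.13e-04), or -0.77 as the mean with a dim second probe set. Slc7a10 (Asc-1), an exchanger of glycine, alanine and D-serine, had 31.1, 25.5 and 27.6 units against 53.2 and 64.7 (-0.76 ± 0.15, adjusted p = 0.00271). In both genes the replicates of a tissue lay close together and the tissues well apart. Slc7a11 (xCT), the light chain that imports cystine in exchange for glutamate, had 29.6, 32.6 and 32.3 units against 47.1 and 51.5 (-0.46 ± 0.15, adjusted p = 0.0323). Slc7a4, whose transport activity is not settled, had 33.0, 33.4 and 26.4 units against 44.8 and 53.1 (-0.47 ± 0.15, adjusted p = 0.0379). These 2 smaller differences held by a narrow margin. Slc7a11 had -0.51 (adjusted p = 0.111) without cerebellum 1, -0.41 (0.215) without cerebellum 2, -0.43 (0.0982) without tumour 1 and -0.47 (0.0606) without tumour 3. Slc7a4 had -0.56 (adjusted p = 0.0886) without cerebellum 1, -0.38 (0.273) without cerebellum 2, -0.50 (0.0713) without tumour 1 and -0.40 (0.113) without tumour 3. With equal array medians, quantile normalization or no filter their adjusted p lay between 0.0529 and 0.0652, Slc7a4 had 0.051 with no trend, and the mean of its 3 probe sets was -0.24 (adjusted p = 0.174). Without a call were Slc7a2 (-0.15), Slc7a3 (0.17), Slc7a7 (0.32), Slc7a9 (-0.01) and Slc7a13 (-0.10). Slc7a7, known from macrophages, had 23.3, 20.6 and 19.2 units in the tumours and 14.1 and 13.2 in cerebellum on its chosen probe set. That difference had an adjusted p of 0.102. A second Slc7a7 probe set, on 430B, did not show it, with overlapping groups and -0.04 ± 0.17 (adjusted p = 0.923). Of 10 microglia markers 6 were called higher, with a summed intensity of 1149 to 1487 in tumours and 395 to 491 in cerebellum. Their part in the values of Slc7a7 was not tested.

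**Figure D2:**
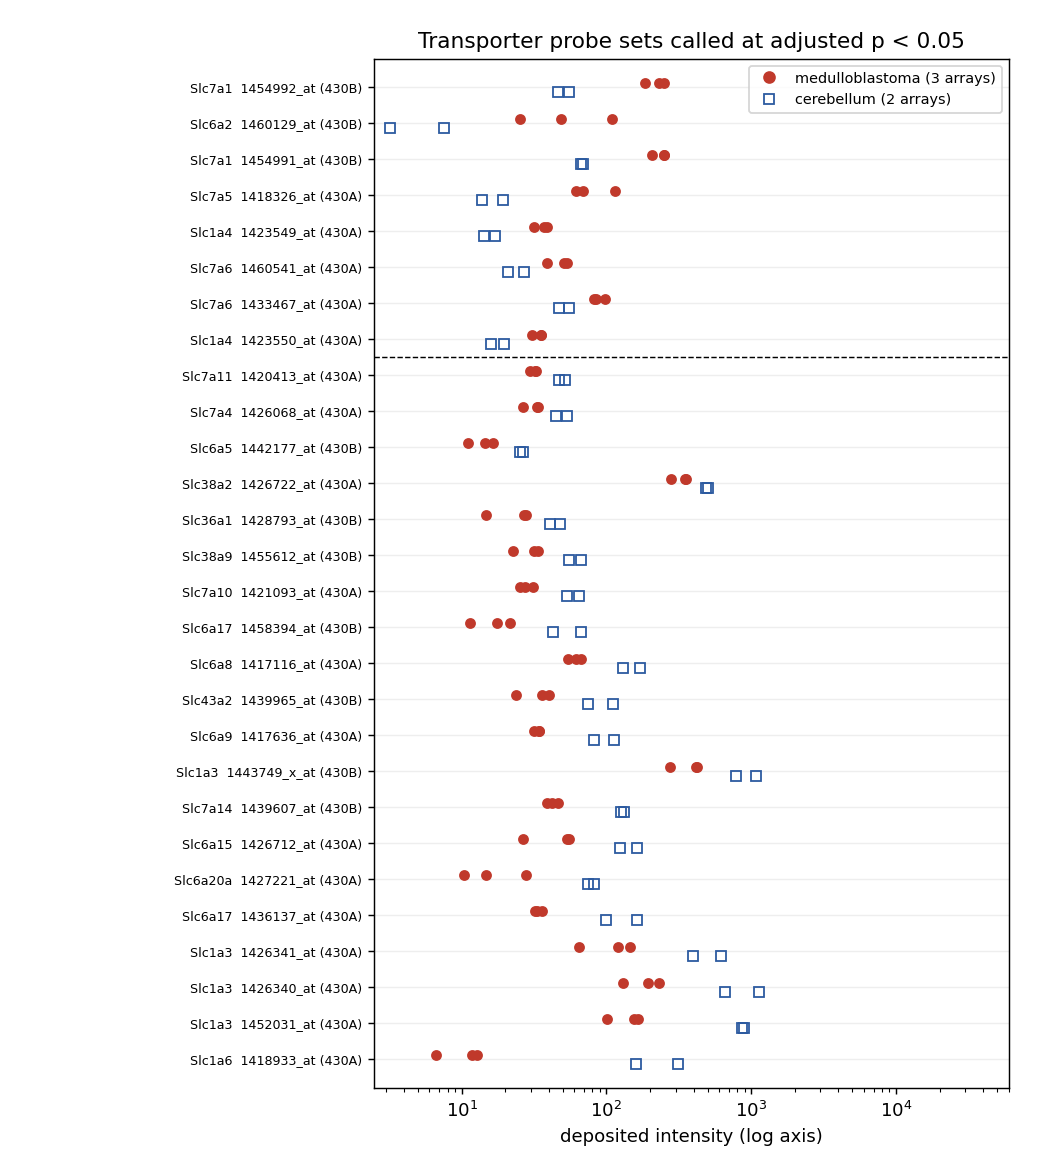
Deposited intensity on a log axis for the 28 member probe sets called at an adjusted p below 0.05, with the 3 medulloblastoma arrays as red circles and the 2 cerebellum arrays as blue open squares. The 8 probe sets above the dashed line were called higher and the 20 below it lower. Slc1a6 at the bottom has tumour values of 6.66 to 12.9 against 160 and 313 in cerebellum.

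Of 13 tested SLC36, SLC38 and SLC43 genes 3 were called lower by their chosen probe set and none higher. Slc43a2 (LAT4), which exports large neutral amino acids, fell most, from 74.7 and 112 units in cerebellum 1 and 2 to 36.1, 23.9 and 40.2 in the tumours (-1.14 ± 0.21, adjusted p = 0.00361). Without cerebellum 2 it had -0.89 (adjusted p = 0.0586), and the mean with its dimmer probe set gave -0.64 (adjusted p = 0.0236). Slc43a1 (LAT3) had 0.17 ± 0.15. Slc36a1 (PAT1), which exports amino acids from lysosomes, had 27.97, 14.7 and 27.0 units in the tumours and 40.9 and 47.8 in cerebellum 1 and 2 (-0.64 ± 0.18, adjusted p = 0.0351). That call ended without cerebellum 1 (-0.72, adjusted p = 0.112), cerebellum 2 (-0.55, 0.237) or tumour 2 (-0.47, 0.119), and with a pseudocount of 1 (0.0538), no filter (0.0709) or no trend (0.0528). Slc36a2, Slc36a3 and Slc36a4 lay between 0.04 and 0.10 and were not called.

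Of 7 tested SLC38 genes 1 was called lower on its chosen probe set. Slc38a2 (SNAT2), the carrier that cells raise when amino acids run short, had 278, 353 and 350 units in the tumours and 486 and 501 in cerebellum 1 and 2 (-0.58 ± 0.20, adjusted p = 0.0441). After quantile normalization it had -0.29 (adjusted p = 0.333) and with equal array medians -0.53 (0.0643), and its 430B probe sets gave 0.22 ± 0.25 and 0.12 ± 0.13. Its call also ended without cerebellum 1 (-0.60, adjusted p = 0.172), cerebellum 2 (-0.56, 0.222), tumour 1 (-0.47, 0.14) or tumour 3 (-0.63, 0.0767). Slc38a9, the arginine sensor of lysosomes, had 1 of 6 tested probe sets called, with 22.8, 31.5 and 33.9 units against 66.6 and 55.0 (-0.76 ± 0.16, adjusted p = 0.00919). That probe set had -0.65 (adjusted p = 0.104) without cerebellum 1, and the chosen one, the brightest, had -0.22 ± 0.20. Slc38a1 (SNAT1), the glutamine carrier of neurons, had -0.51 ± 0.22 (adjusted p = 0.112) on 430A and -0.75 ± 0.28 (adjusted p = 0.107) on 430B. The groups of Slc38a1 did not overlap on either chip. On 430A it had 116, 176 and 151 units in tumours and 237 and 192 in cerebellum. On 430B these were 405, 301 and 271 against 495 and 608. Without tumour 2 the 430A value was -0.63 (adjusted p = 0.0229). Slc38a3 (SNAT3), the glutamine carrier of astrocytes, had overlapping groups (-0.18 ± 0.22). Slc38a10 was measured by 7 tested probe sets, from -0.55 to 0.23, none of them called, and its lowest, the chosen one, had -0.69 (adjusted p = 0.00772) without tumour 2 and an adjusted p of 0.0462 with no trend. Slc38a6 had -0.19 and Slc38a7 -0.08.

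Several members had probe sets that did not tell the same story. Of 21 genes with more than 1 tested probe set, 13 had some called and some not, and none had calls in both directions. The widest gap was in Slc1a3, from -2.54 to 0.16, followed by Slc7a1. Slc6a2, the noradrenaline carrier, had a single call. Of 4 Slc6a2 probe sets 3 had 31.1 to 53.7 units over all arrays of either tissue and log2 fold changes between -0.02 and 0.12. The fourth, on 430B, had 109, 48.6 and 25.4 units in the tumours and 7.51 and 3.19 in cerebellum 1 and 2 (1.71 ± 0.36, adjusted p = 0.00842). Its tumours differ among themselves by more than those of any other called member probe set on the log axis of the intensity plot. It had 1.56 (adjusted p = 0.0973) without cerebellum 2, and 3.13 and 0.80 with pseudocounts of 1 and 64. Of 3 tested markers of monoaminergic neurons none was called, and which transcript this probe set reads was not tested. On 430B a second Slc7a11 probe set had 86.8 units in tumour 1 and 12.8 to 20.7 in all other arrays (0.57 ± 0.42).

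**Figure D3:**
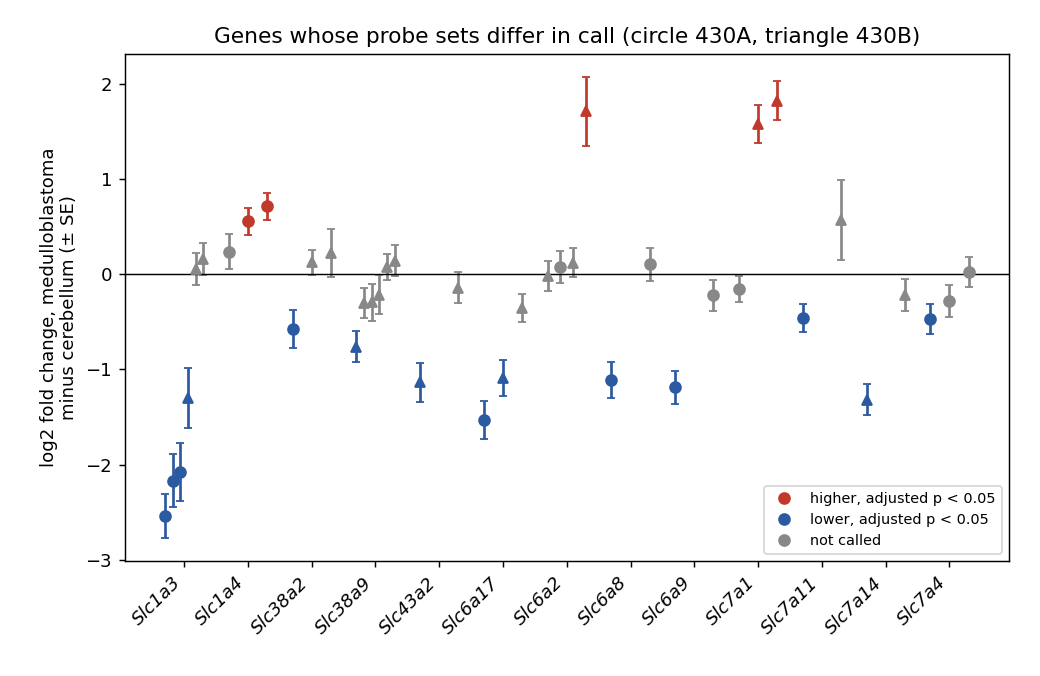
Log2 fold change of medulloblastoma minus cerebellum, with bars of 1 SE, for every tested probe set of the 13 members whose probe sets differ in call. Circles are 430A and triangles 430B probe sets, red called higher, blue called lower and grey not called. In Slc7a1 the 2 probe sets of 430B lie at 1.58 and 1.82 and that of 430A at -0.16.

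The filter on low values left 16 members untested, with 19 probe sets, none of which passed 29.97 units on any array. They were Slc6a3, Slc6a4, Slc6a7, Slc6a12, Slc6a14, Slc6a16, Slc6a18, Slc6a20b, Slc7a8, Slc7a12, Slc7a15, Slc38a4, Slc38a5, Slc43a3, Slc36a1os and Slc6a19os. With no filter 3 of these probe sets were called. Slc6a7, the proline carrier of glutamatergic synapses, had 2.02, 4.46 and 3.22 units in the tumours and 15.95 and 26.9 in cerebellum 1 and 2 (-0.95 ± 0.15, adjusted p = 0.00447). Slc7a8 (LAT2), a light chain for neutral amino acids, had 3.94, 6.14 and 6.26 against 16.3 and 29.97 (-0.85 ± 0.16, adjusted p = 0.00408). Slc6a3, the dopamine carrier, had 13.2, 14.2 and 13.7 against 2.65 and 5.12 (0.58 ± 0.12, adjusted p = 0.00542). All 3 are so dim that background signal cannot be told from transcript. Of the opposite strand genes only Slc7a6os was tested, at 0.38 ± 0.15 (adjusted p = 0.11).

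Promoter sequence was available in the RefSeq table of build GRCm38.p6 for 46 of the 63 members, in 67 windows of 280 bases that run from 250 before to 30 after a transcript start. Each was searched on both strands for CACGTG, the E-box bound by MYC and related factors, for TGATGNAA, the core of the amino acid response element bound by ATF4, and for GACCACCCA, the GLI site of the Hedgehog pathway. Of all 32851 windows 6.79%, 3.81% and 0.24% hold these motifs. These are shares of windows, so they cannot be set directly against counts of members, some of which have several windows. Of the 67 member windows 53 held no motif. The E-box was found in 9 members, the response element in 4 (Slc1a4, Slc7a11, Slc7a7 and Slc6a21) and the GLI site in none, and no member window held more than 1 kind of motif. Calls are counted here by any probe set. Of the 3 genes with a higher call and a window, 1 held a response element. Of the 13 with a lower call, 1 held a response element and 3 an E-box. The 4 windows below belong to 2 genes with higher calls, Slc1a4 (chr11:20332684-20332963, minus strand) and Slc7a1 (the first of its starts, chr5:148399875-148400154, minus strand), and 2 with lower ones, Slc7a11 (chr3:50443584-50443863, minus strand) and Slc1a6 (chr10:78780246-78780525, plus strand). They show that the response element lies near the start of a gene that was called higher and of one that was called lower. Capitals mark the motif on either strand, the first base of which lies at -4 in Slc1a4, at -66 and -47 in Slc7a11 and, for the E-box, at -32 in Slc1a6. A match is a description of the letters, not of binding.
Slc1a4: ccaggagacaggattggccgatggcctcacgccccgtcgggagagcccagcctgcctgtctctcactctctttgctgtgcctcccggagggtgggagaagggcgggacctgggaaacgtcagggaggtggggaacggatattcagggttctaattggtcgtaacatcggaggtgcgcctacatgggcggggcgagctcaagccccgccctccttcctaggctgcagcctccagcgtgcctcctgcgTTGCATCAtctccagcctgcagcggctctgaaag
Slc7a1: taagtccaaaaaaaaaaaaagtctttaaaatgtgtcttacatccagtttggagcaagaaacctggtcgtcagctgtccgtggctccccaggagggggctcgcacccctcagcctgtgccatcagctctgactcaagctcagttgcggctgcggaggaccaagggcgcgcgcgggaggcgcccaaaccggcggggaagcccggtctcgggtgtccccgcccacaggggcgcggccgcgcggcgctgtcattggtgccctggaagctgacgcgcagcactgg
Slc7a11: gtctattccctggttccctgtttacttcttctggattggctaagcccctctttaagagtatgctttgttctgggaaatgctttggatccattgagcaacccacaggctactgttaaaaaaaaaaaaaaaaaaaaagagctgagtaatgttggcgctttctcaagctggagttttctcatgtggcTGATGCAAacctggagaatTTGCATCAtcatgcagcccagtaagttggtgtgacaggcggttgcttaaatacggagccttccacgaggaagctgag
Slc1a6: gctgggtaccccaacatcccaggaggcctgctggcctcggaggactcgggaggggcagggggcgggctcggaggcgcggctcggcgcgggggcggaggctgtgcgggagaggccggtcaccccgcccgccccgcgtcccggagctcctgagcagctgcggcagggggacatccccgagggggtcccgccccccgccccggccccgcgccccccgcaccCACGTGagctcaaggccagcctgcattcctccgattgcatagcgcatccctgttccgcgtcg

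The enzymes that make and use the carried amino acids moved in both directions. Of 8 tested genes of glutamate, glutamine and GABA metabolism 7 were called lower and none higher, with a median log2 fold change of -1.84. They included Gad1, which makes GABA (-4.64 ± 0.25), Got1, which links aspartate and glutamate (-3.35 ± 0.21), Abat, which breaks GABA down (-2.54 ± 0.20), and Glul, the glutamine synthetase of astrocytes (-2.30 ± 0.23). Glul had 171, 248 and 287 units in the tumours and 1163 and 1226 in cerebellum 1 and 2. Among 9 tested genes for the synthesis of serine, glycine, asparagine and proline 3 were called higher and 1 lower, with a median of 0.40. Psat1 and Phgdh, which act in serine synthesis, had 1.76 ± 0.21 and 1.27 ± 0.28, Aldh18a1, of proline synthesis, had 0.98 ± 0.21, and Gldc, which cleaves glycine, had -0.86 ± 0.15. Psat1 had 664, 462 and 538 units in the tumours and 147 and 154 in cerebellum 1 and 2.

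Of 8 tested genes of the amino acid stress response none was called higher and 1 lower, Ddit3 (-0.62 ± 0.17), and Atf4, its main transcription factor, had 0.03 ± 0.21. Of 7 genes of cystine and glutathione metabolism 2 were called higher, Txnrd1 (1.02 ± 0.22) and Nfe2l2 (0.68 ± 0.17), and 1 lower, Gclm (-0.66 ± 0.16). Of 14 genes by which mTORC1 senses amino acids at the lysosome none was called higher and 5 were called lower, with a median of -0.41. They were led by Rheb (-1.48 ± 0.20), which activates the kinase, Mtor itself (-1.02 ± 0.18), Flcn (-0.99 ± 0.17) and Rraga (-0.76 ± 0.20). In creatine and taurine synthesis Gatm was called lower (-0.89 ± 0.22) and Gamt higher (0.46 ± 0.14), of 5 tested. The vesicular carriers, which load transmitters into synaptic vesicles, had 1 gene called higher and 1 lower, both of them glutamate carriers. Slc17a6 (VGLUT2) had 196, 159 and 197 units in the tumours and 75.8 and 48.2 in cerebellum 1 and 2 (1.37 ± 0.22). Slc17a7 (VGLUT1), of mature granule neurons, had 23.2, 18.6 and 18.7 against 55.4 and 87.6 (-1.25 ± 0.18), and the other 4, Slc32a1 with 0.01 ± 0.15 among them, were not called.

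**Figure D4:**
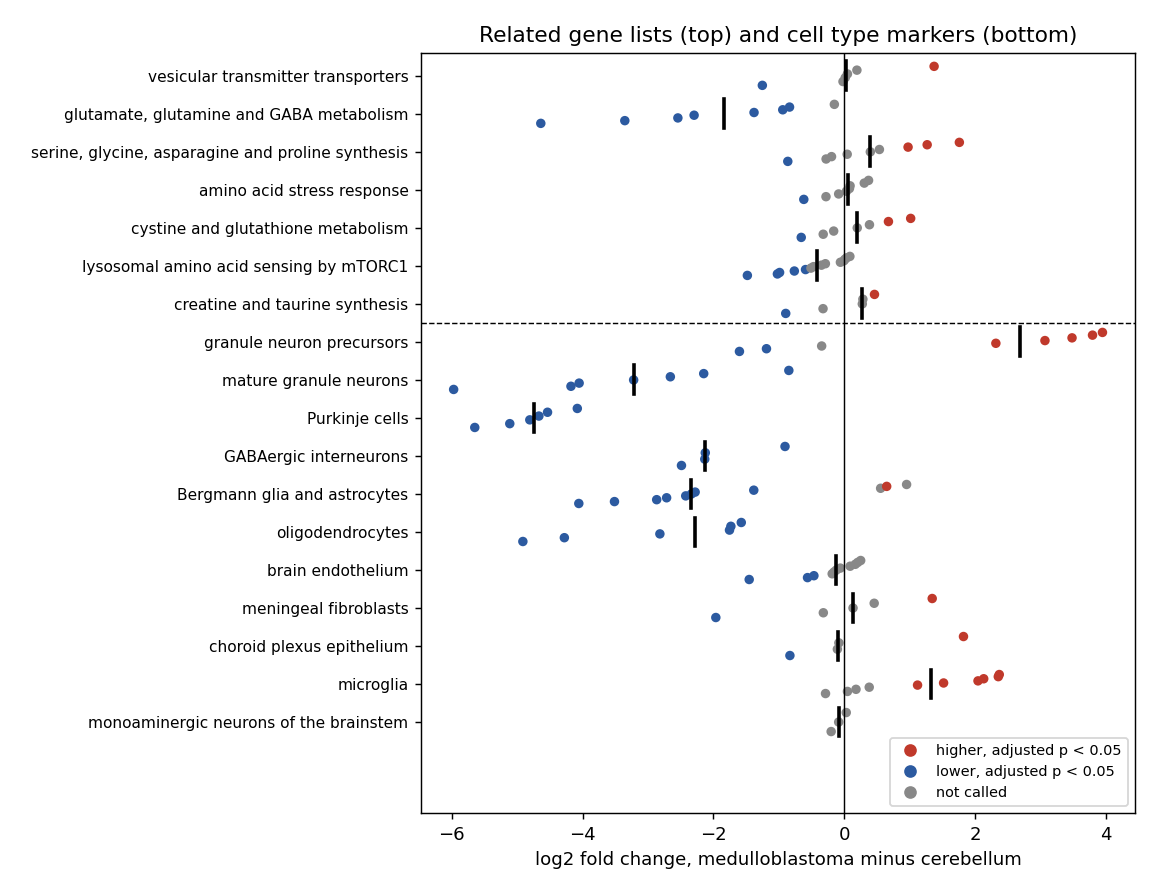
Log2 fold change of medulloblastoma minus cerebellum for each gene (points) of 7 lists of enzymes, sensors and vesicular carriers, above the dashed line, and 11 lists of cell type markers, below it, with the median of each list as a black bar. Red points were called higher, blue points lower and grey points not called. The list of glutamate, glutamine and GABA metabolism has its median at -1.84, and the Purkinje cell markers theirs at -4.74.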

How the data were processed

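RNA of medulloblastomas and adjacent cerebellum was measured on 10 Affymetrix arrays. Trizol was used for RNA extraction and biotinylated cRNA was hybridised, per the labels' protocols. The intensity values are as deposited by the authors, 1 per probe set and array; how they were scaled and background-corrected is not given in the sources used here. The titles of the samples gave the groups and numbers. Array medians differed by at most 0.073 log2 units on a chip, under the limit of 0.5, so nothing was rescaled. Low values appear to be set to 1, and no detection measure was used.

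Each chip was fitted separately with limma 3.58.1 in R 4.3.3 (lmFit and eBayes with trend, two-sided) on log2(intensity + 16), without the 25% of probe sets of lowest mean. Benjamini-Hochberg adjustment ran over the chip, and calls need an adjusted p below 0.05. The fit was tested on simulated data. Genes came from the platform annotation, using probe sets that name 1 gene, and all 63 symbols are in RefSeq's gene table. A gene's chosen probe set is from 430A before 430B, then not a cross-hybridising type (_s_at or _x_at), then the brightest on average. Every measured member is named, with values in every array for those past the test; up to 4 genes past the test are named per other list.

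Members, lists and tests were chosen with earlier results of these data known. Alternatives changed 1 choice at a time: pseudocount, scaling, filter, trend, replicate block, each replicate left out, threshold and choice of probe set. The count by any probe set was added after seeing the data. With 1 cerebellum array left, the lone sample is assumed to vary like the tumours. Tumour and cerebellum of the same replicate number had weakly related deviations (r from -0.03 to 0.17 over probe sets). With so few arrays this cannot show whether they are paired. The labels name no pairs, so the main fit has no block.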

Additional observations from a re-analysis of the deposited data

How the results depend on the processing

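Of 28 called member probe sets, the direction was kept in every refit in which the probe set was tested, and between 2 and 10 lost their call when 1 replicate was left out, 10 of them without cerebellum 2 and 9 without cerebellum 1. With each replicate left out in turn, between 1 and 2 member genes were called higher, between 9 and 15 lower, and between 5 and 13 probe sets of 430B were called. The main counts were 2, 15 and 10, with 18 on 430A. At an adjusted p below 0.01 only 1 gene was higher. With a log2 fold change of at least 1 required, 1 gene was higher and 9 were lower, and 10 probe sets of 430A passed. Counted by any probe set, 5 genes were higher. With the replicate block, in which tumour 3 has no partner and adds nothing to the estimate, 16 probe sets of 430B were called and 26 of the 28 calls held, all but Slc38a2 (adjusted p = 0.0502) and Slc7a4 (0.0952). Among chosen probe sets the block added calls for Slc1a1 (-0.59, 0.0178), Slc1a2 (-0.56, 0.0147) and Slc6a11 (0.50, 0.0127). The block leaves almost no spread within a probe set to estimate, so its p-values rest mainly on variance borrowed from other probe sets. Calls held or added under the block are therefore no firm check on the main ones. With a pseudocount of 64 the fold change of 20 of the 28 was over 1.5 times smaller; the causes of these shifts were not tested, apart from fewer samples or a stricter limit by construction. Slc7a1 reversed with its brightest probe set, to 1.58 from -0.16. Dim signal limits Slc6a5, Slc6a20a, Slc1a6 and the 16 untested genes, and 3 tumours against 2 cerebellum samples limit every value.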
